A study of Homo sapiens with 27 samples.

Results

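The response of MCF10A cells to oncostatin M (OSM) alone was described by setting 3 libraries of OSM-treated cells against 3 libraries of cells given phosphate-buffered saline (PBS), both collected at 24 h. These 6 libraries were taken by their labels from the 27 of the series. MCF10A is an established, non-tumorigenic line of human breast epithelium with basal features. All cells had been grown with 20 ng/ml epidermal growth factor (EGF), 5% horse serum, hydrocortisone, cholera toxin and insulin, seeded on collagen-1, and then kept for 18 h without added growth factors. OSM cells then received OSM at 10 ng/ml and no other ligand, and PBS cells received the vehicle. Beside these groups, 3 libraries of untreated cells labelled T0 and 3 libraries of cells given EGF at 10 ng/ml for 24 h were used to place the OSM values. The series as a whole addresses how EGF, OSM and transforming growth factor beta (TGFB) act alone and together. The model is 1 cell line in culture without the stromal cells of the gland, and the labels do not say whether replicates were separate cultures, so p-values measure the spread between these libraries, which may be technical.

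OSM is a cytokine of the interleukin-6 family, made in the body mainly by leukocytes. It binds a receptor pair of gp130 (IL6ST) with either the OSM receptor (OSMR) or the leukaemia inhibitory factor receptor (LIFR), and the bound kinases of the JAK family phosphorylate STAT3, which enters the nucleus and drives genes such as SOCS3, whose product in turn shuts the receptor off. The same receptors also feed the ERK kinase cascade. In liver the family is known for the acute-phase response, the release of plasma proteins during inflammation, and in skin and mammary epithelium for effects on migration, proliferation and squamous differentiation.

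Total counts in the 6 libraries ran from 35.2 to 46.6 M (1 M is 1e6 counts), the range over all 27 being 30.1 to 52.9 M. A level is a gene's count divided by the total of its library in M (CPM), the totals being first adjusted by trimmed-mean (TMM) scaling between libraries. Among markers of the labelled cell type, KRT5, KRT14, KRT17, TP63, ITGB4 and CDH3 of basal epithelium summed to 10871 to 12461 CPM in PBS and 20372 to 21179.7 CPM in OSM. The 6 luminal markers summed to 407 to 431 and 391 to 411 CPM, with KRT19 under 1 CPM in every library. Their similar sums held opposite changes. KRT8, EPCAM and GATA3 were called lower in OSM (-0.72, -0.60 and -0.58 on the log2 scale), and KRT18 and ESR1 higher (0.90 and 1.30). Of the markers of other cells, the leukocyte gene PTPRC (CD45) had 5 counts in PBS and 8 in OSM, summed over 3 libraries. Of the 5 endothelial markers, CDH5 had 2 and 0 such counts and CLDN5 0 and 3. TEK (2 and 29) and PECAM1 (127 and 199) were called higher in OSM, and VWF (326 and 6) was called lower. Of 7 leukocyte markers 3 passed the filter on low counts (CD14, CD68 and ITGAM), and all summed to 55.2 to 61.9 CPM in PBS and 96.3 to 119 CPM in OSM, nearly all from CD14 and CD68. The 7 fibroblast markers, with COL3A1 and PDGFRA below the filter, summed to 129 to 133 and 87.9 to 110.2 CPM. OSM replicate 3 stood apart from the other OSM libraries on the second principal component of the 6 libraries (-41.1 against 22.9 and 22.5). Of 9410 genes at 10 CPM or more in OSM, 149 differed by over 1.5-fold between replicate 3 and the mean of the other two, against 64 between replicates 1 and 2. In a population measured in bulk, a change in the make-up of the cells and a change in the RNA of each cell cannot be told apart.

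Most of the transcriptome moved. Against a background of 61% of the 16611 tested genes that edgeR's quasi-likelihood test called (Benjamini-Hochberg adjusted p below 0.05), 32.4% were called higher and 28.5% lower in OSM. The balance of directions turned with upper-quartile scaling, from 5388 higher and 4741 lower genes to 4788 and 5409. A change past 2-fold was called for 19.8% of genes, 9.99% higher (1659 genes) and 9.77% lower (1623). Past 8-fold the shares were 2.33% higher and 1.99% lower. The median log2 fold change of all tested genes was 0.00. Counts within a gene group are therefore read below against shares of about this size, and the group's median against a median of all genes near 0. The OSM and PBS libraries did not overlap, with OSM higher, for 33.7% of genes, and with OSM lower for 30.7%.

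The steepest rises were in genes near silence in PBS. TNFRSF6B, which encodes a soluble decoy receptor for FASL and related death ligands, had 0, 0 and 0 counts in the PBS libraries and 1038, 1107 and 1395 counts in the OSM libraries. That was at least 1280-fold higher, taking PBS at 3 counts over the group, and it overlaps RTEL1 (chr20:63696652-63698684, plus strand, GRCh38), so the split of reads between them rests on the authors' quantification. FGL1, a fibrinogen-like secreted protein, had 2, 0 and 1 and 1019, 1605 and 1102 counts, a ratio of 1350 (95% exact interval 461 to 6540, from a binomial split of the counts and covering counting error only). OLFM4, a secreted olfactomedin glycoprotein known from intestinal crypts (chr13:53028813-53052057, plus strand), gave 0.0499, 0.0861 and 0.0489 CPM in PBS and 138, 168 and 95 CPM in OSM (log2 fold change of 10.99 ± 0.47, adjusted p = 3.4e-14). LTF, which encodes the iron-binding milk protein lactoferrin, gave 0.0999, 0.129 and 0.0245 CPM in PBS and 17.9, 32 and 11.4 CPM in OSM (log2 fold change of 7.84 ± 0.61, adjusted p = 9.2e-10). Each of these genes sat near 0 in every PBS library and far above it in every OSM library, and in OLFM4 and LTF OSM replicate 3 was the lowest of the OSM libraries.

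Other leading rises were in secreted and signalling proteins. IL24, a cytokine of the interleukin-10 family, gave 0.125, 0.108 and 0 CPM in PBS and 9.56, 8.5 and 13.4 CPM in OSM (log2 fold change of 7.01 ± 0.39, adjusted p = 4.1e-13). TREM1, a receptor best known from myeloid cells, gave 0.25, 0.172 and 0.318 CPM in PBS and 30.6, 24.3 and 22.2 CPM in OSM (log2 fold change of 6.70 ± 0.35, adjusted p = 3.0e-13), and SAMSN1, an adaptor protein, 0.025, 0.172 and 0.342 CPM in PBS and 11.5, 13.9 and 11.5 CPM in OSM (log2 fold change of 6.07 ± 0.35, adjusted p = 4.1e-13). The groups did not overlap for any of them. TREM1 and SAMSN1 are best known from blood cells. Of the leukocyte markers given above, PTPRC stayed at single counts in both groups, while CD14 and CD68 were called higher in OSM (1.03 and 0.58 on the log2 scale). Their part in these rises was not tested.

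The steepest falls were in squamous genes and a set of others. DSG4, a desmosomal cadherin of hair and upper epidermis, gave 32.3, 42.4 and 40.0 CPM in PBS and 0.0284, 0.111 and 0.081 CPM in OSM (log2 fold change of -8.91 ± 0.31, adjusted p = 5.5e-17). HSD11B2, the enzyme that inactivates cortisol, gave 395, 528 and 553 CPM in PBS and 8.33, 12 and 7.62 CPM in OSM (log2 fold change of -5.71 ± 0.25, adjusted p = 6.4e-14). GPX2, a glutathione peroxidase, gave 67.6, 77.7 and 79.6 CPM in PBS and 1.51, 1.99 and 1.38 CPM in OSM (log2 fold change of -5.51 ± 0.16, adjusted p = 1.2e-18). All 3 OSM libraries lay below all 3 PBS libraries in each case. Of the others, BEST2, a chloride channel, averaged 22.2 CPM in PBS and 0.164 in OSM, ATOH8, a helix-loop-helix factor, 30.7 and 0.59, and MAP7D2, a microtubule-binding protein, 12.4 and 0.154.

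**Figure D1:**
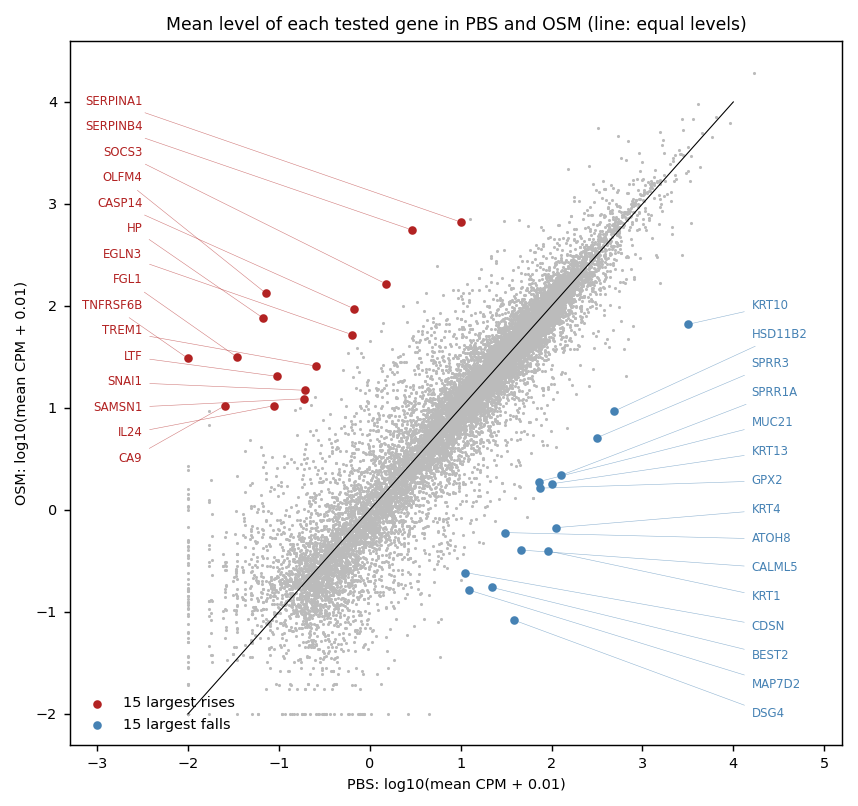
Mean CPM in PBS (x axis) and OSM (y axis) for the 16611 tested genes, both axes log10 of CPM + 0.01, with the 15 largest rises and 15 largest falls at 10 CPM or more marked. The marked rises lie far above the line of equal levels, and the marked falls far below it.

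Counted as shares of each library, the 10 genes with the largest gains in CPM took 1.82, 1.84 and 2.04% of the counts in PBS and 5.48, 5.39 and 5.71% in OSM. Among them were KRT6A, MT2A, S100A9, KRT17, ACTB, TGFBI, GAPDH, ACTG1 and S100A2. The 10 largest losses fell from 3.57, 3.87 and 3.97% to 1.7, 1.81 and 1.59%, and were KRT10, MT-CO1, GLUL, KRT81, DSP, PERP, KRT16, HSPB1, FTH1 and KRT15. CPM is not divided by transcript length, so these are changes in the share of counts and not an order of levels between genes.

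The receptor system moved unevenly. OSMR, the OSM-specific receptor chain, gave 84, 79.8 and 75.7 CPM in PBS and 577, 586 and 503 CPM in OSM (log2 fold change of 2.80 ± 0.08, adjusted p = 2.6e-19). IL6ST, the shared gp130 chain, gave 154, 143 and 145 CPM in PBS and 187, 194 and 199 CPM in OSM (log2 fold change of 0.40 ± 0.05, adjusted p = 2.1e-07), a much smaller rise. LIFR, the alternative partner, was not called, at 19.7 ± 1.8 and 22.1 ± 2.92 CPM (SD, n = 3; log2 fold change of 0.17 ± 0.13, adjusted p = 0.26). IL6R, the interleukin-6 chain, fell from 122, 122 and 124 CPM in PBS to 73.3, 74.5 and 56.7 CPM in OSM (log2 fold change of -0.85 ± 0.10, adjusted p = 6.8e-08). Of the family's ligands, LIF fell (2.54 to 0.69 CPM, log2 fold change of -1.87 ± 0.23, adjusted p = 1.3e-07), OSM itself was below the filter on low counts, and IL6 had 0, 0 and 0 counts in PBS and 6, 4 and 3 in OSM. Over the 12 tested members of the family 5 were higher and 4 lower, with a median of 0.03, so the receptor's rise was not shared by the family as a group.

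STAT3 itself rose, from 269.8, 301 and 277 CPM in PBS to 615, 712 and 569.5 CPM in OSM (log2 fold change of 1.16 ± 0.06, adjusted p = 1.6e-13), with no overlap. STAT4, best known from T cells, gave 0.574, 0.388 and 0.269 CPM in PBS and 3.38, 4.58 and 3.92 CPM in OSM (log2 fold change of 3.27 ± 0.27, adjusted p = 1.6e-10), and STAT5A fell from 24.6 to 17.1 (log2 fold change of -0.52 ± 0.15, adjusted p = 0.0041). The receptor-bound kinases JAK1 and JAK2 both fell, by 0.65 ± 0.06 and 0.79 ± 0.10 on the log2 scale (adjusted p = 1.4e-09 and 5.0e-07). TYK2, the other kinase tested, named here after its values were seen, rose by 0.25 ± 0.06 (adjusted p = 4.7e-04).

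The inhibitors of the pathway split within a family. SOCS3, which blocks JAK kinases at gp130, gave 1.2, 1.83 and 1.44 CPM in PBS and 169, 182 and 143 CPM in OSM (log2 fold change of 6.77 ± 0.16, adjusted p = 8.8e-20). CISH, an inhibitor of cytokine receptor signalling through STAT5, gave 1.35, 1.18 and 1.17 CPM in PBS and 5.94, 6.18 and 5.97 CPM in OSM (log2 fold change of 2.29 ± 0.15, adjusted p = 2.9e-12), and SOCS2 6.59, 6.26 and 5.58 CPM in PBS and 18.5, 18.5 and 19.9 CPM in OSM (log2 fold change of 1.62 ± 0.07, adjusted p = 3.0e-15). SOCS1, a close relative of SOCS3 that is also induced by interferons, went the other way, from 5.92, 5.12 and 5.8 CPM in PBS to 0.455, 0.244 and 0.324 CPM in OSM (log2 fold change of -4.05 ± 0.25, adjusted p = 1.6e-12). The groups did not overlap in any of the 4. Of 16 inhibitors of the SOCS, PIAS and phosphatase families, 7 were called higher and 8 lower, 3 and 1 of them past 2-fold.

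**Figure D2:**
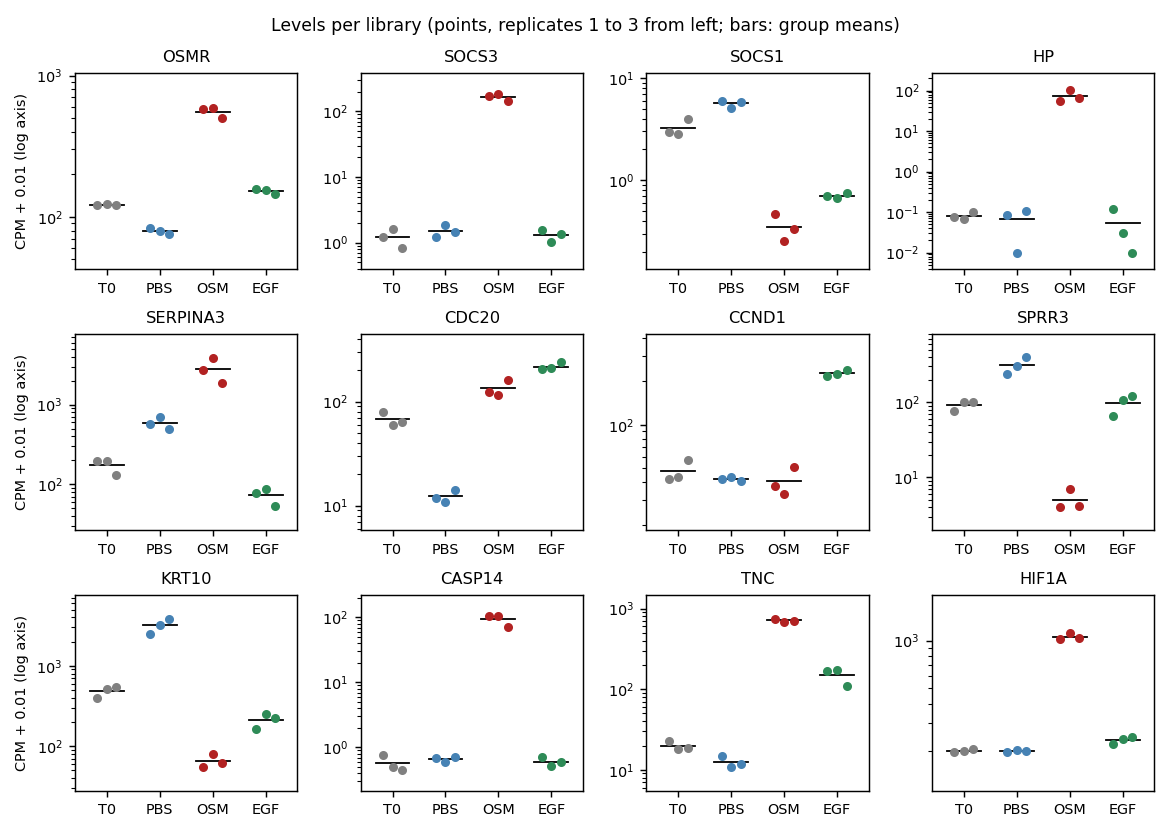
CPM per library (log scale, CPM + 0.01) for 12 genes in T0, PBS, OSM and EGF, 3 libraries a group, with a bar at the group mean. SOCS3, HP and CASP14 are high in OSM alone, CCND1 is high in EGF alone, and SPRR3 and KRT10 are lowest in OSM.

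Genes with well-known STAT3 sites and survival or metabolic roles were higher in most cases. Of 29 tested, 22 were higher and 4 lower, with a median log2 fold change of 0.50. TIMP1, a metalloproteinase inhibitor, gave 157, 149 and 153 CPM in PBS and 2214, 1957 and 2487 CPM in OSM (log2 fold change of 3.86 ± 0.09, adjusted p = 4.5e-20). NNMT, nicotinamide N-methyltransferase, gave 51.4, 60.9 and 55 CPM in PBS and 577, 679.6 and 585 CPM in OSM (log2 fold change of 3.46 ± 0.09, adjusted p = 8.7e-20). BCL3, an atypical I-kappa-B protein, rose from 28.4 to 83.2 CPM (log2 fold change of 1.55 ± 0.14, adjusted p = 4.7e-09) and CEBPD, an acute-phase transcription factor, from 35.7 to 82.9 (log2 fold change of 1.22 ± 0.21, adjusted p = 4.4e-05). Not every textbook member moved: the kinase gene PIM1 was not called, at 53.4 ± 4.57 and 45.9 ± 7.53 CPM (SD, n = 3), and its relative PIM3 fell from 214 to 70.4 CPM (log2 fold change of -1.60 ± 0.12, adjusted p = 5.0e-11).

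Acute-phase genes, the plasma proteins that hepatocytes release in inflammation, rose in these mammary cells. Of 17 tested, 11 were higher, 10 of them past 2-fold, and 3 lower, with a median of 1.80. The other 9 members were below the filter. HP, haptoglobin, which binds free haemoglobin, gave 0.0749, 0 and 0.0978 CPM in PBS and 54.2, 106 and 67.4 CPM in OSM (log2 fold change of 10.35 ± 0.61, adjusted p = 6.7e-12). SERPINA1, the elastase inhibitor alpha-1-antitrypsin, gave 9.31, 10.2 and 10.4 CPM in PBS and 651, 659 and 686 CPM in OSM (log2 fold change of 6.06 ± 0.10, adjusted p = 7.2e-23, for the more abundant of its 2 rows). LRG1, leucine-rich alpha-2-glycoprotein, gave 0.999, 0.624 and 0.514 CPM in PBS and 21, 33.1 and 21.6 CPM in OSM (log2 fold change of 5.15 ± 0.27, adjusted p = 1.1e-13). The groups stood far apart in these genes without overlap. LRG1 was low in PBS, but not as near 0 as HP was.

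SERPINA3, alpha-1-antichymotrypsin, was already expressed in PBS and rose from 568, 702 and 490.0 CPM in PBS to 2689, 3868 and 1860.1 CPM in OSM (log2 fold change of 2.26 ± 0.32, adjusted p = 5.0e-06). SAA2, a serum amyloid A gene that may share reads with its near-identical copy SAA1, rose from 123, 157 and 118 CPM in PBS to 391, 652 and 344 CPM in OSM (log2 fold change of 1.80 ± 0.26, adjusted p = 4.4e-06). Fibrinogen appeared at low counts: the gamma chain FGG had 0, 0 and 0 counts in PBS and 56, 159 and 86 in OSM, at least 109-fold higher. Against this direction, LCN2, lipocalin 2, an iron-trapping protein usually raised in inflamed epithelium, gave 56.2, 70.8 and 45.4 CPM in PBS and 25.9, 42.3 and 13.6 CPM (log2 fold change of -1.07 ± 0.37, adjusted p = 0.017). That call was lost with only the 2 groups fitted (-1.08), without OSM replicate 3 (-0.75) and without PBS replicate 2 (-0.89). SERPINA5, the protein C inhibitor, fell from 28 to 3.37 CPM (log2 fold change of -3.04 ± 0.27, adjusted p = 2.3e-09).

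Complement genes rose in part, 6 of 11 tested components being higher and 1 lower. C1R, a protease that starts the cascade, gave 16.1, 15.9 and 15.6 CPM in PBS and 185, 234 and 150.2 CPM in OSM (log2 fold change of 3.58 ± 0.14, adjusted p = 1.1e-15), and its partner C1S gave 10.3, 10.4 and 10.1 CPM in PBS and 111, 143 and 99 CPM in OSM (log2 fold change of 3.52 ± 0.15, adjusted p = 1.4e-14). SERPING1, their inhibitor, gave 0.749, 0.538 and 0.783 CPM in PBS and 17.5, 17.7 and 11.4 CPM in OSM (log2 fold change of 4.49 ± 0.30, adjusted p = 6.3e-12). The groups did not overlap in these genes, and OSM replicate 3 was the lowest of the OSM libraries in each. CFB, a protease of the alternative pathway, gave 9.14, 11.3 and 9.54 CPM in PBS and 63.9, 100.5 and 57.7 CPM in OSM (log2 fold change of 2.89 ± 0.23, adjusted p = 3.8e-10). These CFB values are from the most abundant of 7 rows with that symbol, a row without a chromosome position in the annotation used. The CFB promoter printed below was matched by symbol and not by row. C3, on which all routes converge, was not called, at 932, 1168 and 1063 CPM in PBS and 786, 1075 and 695 CPM in OSM (log2 fold change of -0.31 ± 0.17, adjusted p = 0.12), and its groups overlapped. It was called lower without OSM replicate 2 (-0.50) and with the replicate number as a block (-0.31). The regulator CFI rose from 2.62 to 10.6 CPM. Of 20 tested complement genes, 12 were higher and 3 lower (median 1.20), and 12 more were below the filter.

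The promoters of some of these genes are shown because they hold the palindrome that STAT dimers are known to bind. The letters searched were TTCNNNGAA, which reads the same on both strands, within the 300 bases from 250 before to 50 after the transcription start in the RefSeq table (GRCh38.p14). Printed below are the 250 bases before the start, 5′ to 3′ on the gene's strand, with matches in capitals, for CISH (chr3:50611775-50612024, minus strand), LRG1 (chr19:4540037-4540286, minus strand) and CFB (chr6:31945845-31946094, plus strand).
CISH: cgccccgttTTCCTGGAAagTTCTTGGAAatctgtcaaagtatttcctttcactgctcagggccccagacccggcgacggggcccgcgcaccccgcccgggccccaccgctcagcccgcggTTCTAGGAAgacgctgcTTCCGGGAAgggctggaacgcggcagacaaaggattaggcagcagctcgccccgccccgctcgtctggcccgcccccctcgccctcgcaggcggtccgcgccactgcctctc
LRG1: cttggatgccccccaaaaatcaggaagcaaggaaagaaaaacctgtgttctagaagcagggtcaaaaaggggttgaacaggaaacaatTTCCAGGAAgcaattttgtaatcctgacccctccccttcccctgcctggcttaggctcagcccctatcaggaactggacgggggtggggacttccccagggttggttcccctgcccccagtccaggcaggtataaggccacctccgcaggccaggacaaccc
CFB: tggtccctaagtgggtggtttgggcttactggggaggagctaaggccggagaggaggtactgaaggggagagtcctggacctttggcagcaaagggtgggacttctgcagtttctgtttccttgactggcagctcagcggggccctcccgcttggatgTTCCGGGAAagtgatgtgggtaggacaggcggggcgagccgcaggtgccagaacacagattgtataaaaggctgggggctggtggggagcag
CISH held 4 matches, TTCCTGGAA, TTCTTGGAA, TTCTAGGAA and TTCCGGGAA, and LRG1 and CFB 1 each, TTCCAGGAA and TTCCGGGAA. A match was found in 6.3% of the 11407 promoters of tested genes, in 7.27% of those of genes higher past 2-fold and in 6.1% of those of genes lower past 2-fold. Among the acute-phase genes it was 5 of 12 promoters, among complement genes 4 of 13, and among JAK-STAT inhibitors, the list that holds CISH, 1 of 12. The SOCS3 window held no match. A match describes letters and not binding.

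The epithelial defence genes split between protein families. Calprotectin, the zinc-binding antimicrobial pair S100A8 and S100A9, rose from 253, 231 and 284 CPM in PBS to 2025, 2548 and 2490.4 CPM in OSM (log2 fold change of 3.20 ± 0.18, adjusted p = 1.7e-12) and from 514, 530.4 and 588 CPM in PBS to 4174, 5152 and 4629 CPM in OSM (log2 fold change of 3.10 ± 0.17, adjusted p = 1.4e-12). S100A7, psoriasin, rose from 74.1 to 241 CPM (log2 fold change of 1.70 ± 0.21, adjusted p = 5.2e-07), with a near-identical copy, S100A7A, at 0.719 and 38.4 CPM. Of 15 S100 genes tested, 10 were higher and 4 lower (median 0.91), S100P and S100A4 being the largest falls (log2 fold change of -0.85 ± 0.22, adjusted p = 0.002, and log2 fold change of -1.30 ± 0.10, adjusted p = 7.7e-11). The groups did not overlap in these genes.

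Most genes for mucins and the oxidase system of the epithelial surface were lower. Of 9 tested genes for mucins and transport, 7 were lower, all past 2-fold, and 2 higher. MUC4, a membrane mucin with several rows in the table, was one of those higher, at 3, 0 and 0 counts in PBS and 77, 82 and 92 in OSM in the row tested for the list, a ratio of 90.8 (95% exact counting interval 30.7 to 443). MUC16, another membrane mucin, fell from 227, 141 and 244 CPM in PBS to 31.6, 32.3 and 15.3 CPM in OSM (log2 fold change of -2.95 ± 0.46, adjusted p = 1.3e-05), and DUOX2, which makes hydrogen peroxide at the apical surface, from 4.34 to 1.19 CPM (log2 fold change of -1.86 ± 0.27, adjusted p = 2.2e-06). SLPI, an inhibitor of neutrophil elastase, fell from 1020.4 to 630.4 CPM (log2 fold change of -0.69 ± 0.13, adjusted p = 8.1e-05). Genes for antimicrobial proteins, by contrast, were higher in 6 of 11 tested, 5 of them past 2-fold, and lower in 3 (median 0.49).

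Cytokine receptors and cytokines are given separately. Of 17 receptor genes tested, 12 were higher and 4 lower (median 1.04). Of 17 cytokine genes, 8 were higher and 3 lower (median 0.21), and the difference between these sets was not tested. IL1RL1, the receptor for interleukin-33, gave 0.924, 0.969 and 0.636 CPM in PBS and 23.8, 34.5 and 37.5 CPM in OSM (log2 fold change of 5.23 ± 0.27, adjusted p = 8.5e-14), and IL33 itself 0.0749, 0.0215 and 0.0734 CPM in PBS and 2.87, 1.75 and 3.27 CPM in OSM (log2 fold change of 5.49 ± 0.55, adjusted p = 5.2e-09). The ligand thus rose from near 0, and the receptor from a low level that was already measurable in PBS. IL4R, the interleukin-4 receptor chain, rose from 43.1, 46.7 and 39.5 CPM in PBS to 241, 239.8 and 242 CPM in OSM (log2 fold change of 2.48 ± 0.06, adjusted p = 2.9e-20). CSF3, granulocyte colony-stimulating factor, rose from 0.766 to 10.5 CPM (log2 fold change of 3.75 ± 0.23, adjusted p = 3.3e-12). IL1RN, the natural blocker of the interleukin-1 receptor, fell from 67.2, 79.8 and 94.1 CPM in PBS to 12.4, 17.1 and 15.7 CPM in OSM (log2 fold change of -2.41 ± 0.28, adjusted p = 2.9e-07), and IL18 fell from 129 to 39 CPM (log2 fold change of -1.72 ± 0.09, adjusted p = 1.9e-14).

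Of 16 chemokine genes tested, 7 were higher and 5 lower, with a median of -0.21 that turned to 0.09 without PBS replicate 2. CCL20, which draws lymphocytes and dendritic cells, gave 0.924, 0.926 and 0.734 CPM in PBS and 8.59, 10.9 and 9.05 CPM in OSM (log2 fold change of 3.46 ± 0.15, adjusted p = 2.7e-15), and CXCL1, a neutrophil attractant, 3.4, 6.46 and 4.23 CPM in PBS and 19.7, 26.4 and 15.9 CPM in OSM (log2 fold change of 2.13 ± 0.23, adjusted p = 4.3e-08). CXCL14, a chemokine of resting epithelium, fell from 14.9 to 4.64 CPM (log2 fold change of -1.68 ± 0.30, adjusted p = 5.0e-05).

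Genes for the factors and feedback of NF-kappa-B, the other main inflammatory pathway of epithelium, were mostly not called or lower. Of 14 tested, 2 were higher and 5 lower, with a median of -0.11, beside 32.4% higher and 28.5% lower among all genes. NFKBIA, the inhibitor that NF-kappa-B induces in a short loop, fell from 208, 237 and 220.1 CPM in PBS to 155, 176 and 135 CPM in OSM (log2 fold change of -0.51 ± 0.07, adjusted p = 1.5e-06), and TNFAIP3, another induced brake, from 49.4 to 31.1 CPM (log2 fold change of -0.67 ± 0.14, adjusted p = 3.0e-04). NFKB1 rose, from 70.1 to 129 CPM (log2 fold change of 0.88 ± 0.06, adjusted p = 6.1e-12).

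Interferon-stimulated genes went in both directions. Of 41 tested, 18 were higher and 11 lower (median 0.24), beside 32.4% higher and 28.5% lower among all genes. The membrane proteins IFITM1, IFITM2 and IFITM3, which block viral entry and have similar sequences, rose from 0.937, 81.1 and 175 CPM to 9.82, 403 and 1069 CPM (log2 fold changes of 3.39 ± 0.28, 2.32 ± 0.10 and 2.61 ± 0.11). IFIT1, which binds viral RNA, fell from 6.64, 8.01 and 6.77 CPM in PBS to 1.34, 1.93 and 1.11 CPM in OSM (log2 fold change of -2.28 ± 0.21, adjusted p = 1.0e-09), OAS1, a sensor of double-stranded RNA, from 32.8 to 12.6 (log2 fold change of -1.37 ± 0.12, adjusted p = 3.0e-10) and IFI27 from 8.87 to 2.29 (log2 fold change of -1.95 ± 0.20, adjusted p = 1.1e-08). Of the MHC class I genes 3 of 15 were higher and 1 lower (median 0.07). HLA-B, B2M and TAP1 had log2 fold changes of 0.07 ± 0.11, -0.05 ± 0.07 and 0.08 ± 0.12, none called.

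**Figure D3:**
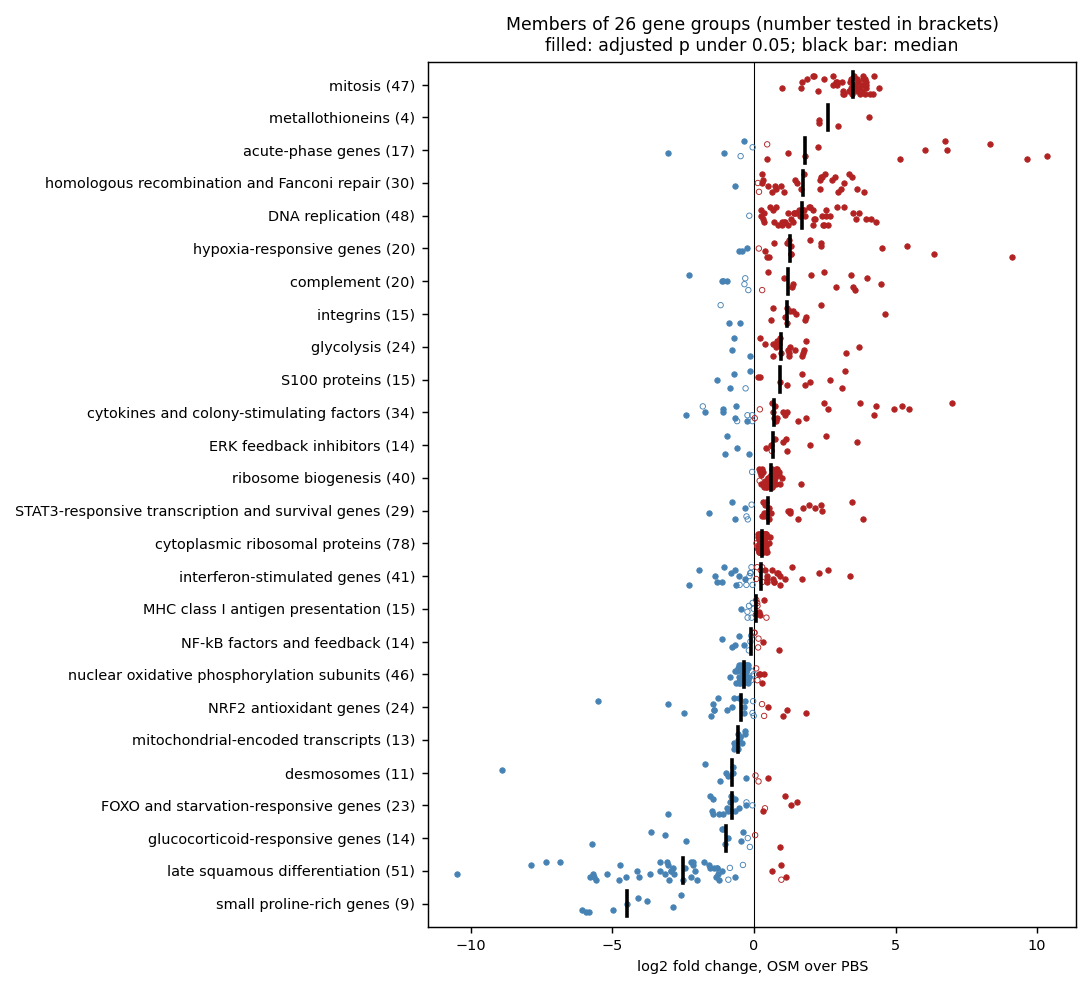
Log2 fold change of OSM over PBS for each tested member (points) of 26 gene groups, ordered by their medians (black bars), filled where the adjusted p was under 0.05. Mitosis members and all DNA replication members but ORC4 lie to the right of 0, and members of the small proline-rich and late squamous groups to the left, with a few exceptions in the latter.

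Genes of the cell cycle rose as blocks. All 47 tested mitosis genes were higher past 2-fold, with a median log2 fold change of 3.50 and a range of 1.01 to 4.43, against the 9.99% of all genes that were. CDC20, an activator of the anaphase-promoting complex, gave 11.8, 10.9 and 14.1 CPM in PBS and 124, 115 and 162 CPM in OSM (log2 fold change of 3.44 ± 0.23, adjusted p = 5.9e-11). AURKB, a kinase of the chromosomal passenger complex, gave 1.37, 1.38 and 1.2 CPM in PBS and 24.3, 21.6 and 28.6 CPM in OSM (log2 fold change of 4.23 ± 0.23, adjusted p = 1.0e-12). Of 48 DNA replication genes 47 were higher and 0 lower (median 1.69), the origin and helicase genes having a median of 2.08 and the polymerase and nucleotide genes 1.40. MCM10, which loads the replication machinery, gave 1.07, 0.926 and 0.856 CPM in PBS and 15.8, 14.9 and 25.7 CPM in OSM (log2 fold change of 4.30 ± 0.31, adjusted p = 1.4e-10), the highest in OSM replicate 3. ORC4, an origin-recognition subunit, was the one member not called (32.7 and 29.1 CPM, log2 fold change of -0.16), but it was called lower in 8 of 13 alternatives, among them without OSM replicate 3 (-0.27) and without PBS replicate 2 (-0.20).

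Genes for cell cycle factors, cyclins and kinase inhibitors went in both directions. E2F, retinoblastoma and late cell cycle factors were higher in 13 of 20 and lower in 2 (median 0.58). G1 cyclins and kinases were higher in 6 of 9 and lower in 1 (median 0.71). MYBL2, a factor of the late cell cycle, gave 3.5, 3.27 and 4.94 CPM in PBS and 78.4, 77.4 and 109.8 CPM in OSM (log2 fold change of 4.51 ± 0.24, adjusted p = 1.1e-12), and FOXM1, the factor of the G2 phase, 6.97, 6.48 and 7.92 CPM in PBS and 70.4, 66.1 and 88.7 CPM in OSM (log2 fold change of 3.40 ± 0.20, adjusted p = 6.1e-12). CCNE2, a cyclin of the G1 to S transition, rose from 1.08 to 8.03 CPM (log2 fold change of 2.89 ± 0.21, adjusted p = 4.0e-11). CCND1, the D-type cyclin that couples growth factor signals to the cycle, gave 41.8, 43.3 and 40.6 CPM in PBS and 37.6, 32.8 and 50.9 CPM in OSM and was not called (log2 fold change of -0.05 ± 0.13, adjusted p = 0.75). In EGF it was at 217, 225 and 241 CPM, above every OSM library (log2 OSM over EGF fold change of -2.49 ± 0.14, adjusted p = 1.9e-12). Of the inhibitors of cyclin-dependent kinases, CDKN1C (p57) fell from 48.3, 84.1 and 101 CPM in PBS to 3.98, 5.4 and 4.75 CPM in OSM (log2 fold change of -4.03 ± 0.39, adjusted p = 1.7e-08), CDKN1A (p21) from 477 to 253 CPM (log2 fold change of -0.92 ± 0.12, adjusted p = 9.2e-07) and CDKN1B (p27) from 42.5 to 26.7 (log2 fold change of -0.67 ± 0.10, adjusted p = 1.8e-06), while CDKN2C (p18) rose from 5.42 to 7.19 (log2 fold change of 0.41 ± 0.12, adjusted p = 0.0053).

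DNA repair by homologous recombination and the Fanconi pathway rose with replication, 27 of 30 tested genes being higher (median 1.72). FANCE was the one member that fell, from 27.8 to 17.4 CPM (log2 fold change of -0.68 ± 0.10, adjusted p = 2.8e-06). Ribosome biogenesis genes rose almost as a block but by little: 38 of 40 were higher, only 2 of them past 2-fold (median 0.60). NOP56, a core protein of the small nucleolar particles, rose from 88.9 to 178 CPM (log2 fold change of 1.00 ± 0.09, adjusted p = 1.1e-09). Ribosomal proteins followed with 76 of 78 higher and a median of 0.28. Under upper-quartile scaling that count was 72 and the median 0.22.

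Promoters of proliferation genes are shown to display the elements that replication and mitosis promoters are known for. E2F letters (TTTGGCGC or TTTCCCGC, both strands) are capitalised in MCM6, a helicase subunit (chr2:135876444-135876693, minus strand), and CHR letters (TTTGAA, both strands), the cell cycle gene homology region, in MKI67 (chr10:128126424-128126673, minus strand) and CDC20 (chr1:43358731-43358980, plus strand), over the 250 bases before the start.
MCM6: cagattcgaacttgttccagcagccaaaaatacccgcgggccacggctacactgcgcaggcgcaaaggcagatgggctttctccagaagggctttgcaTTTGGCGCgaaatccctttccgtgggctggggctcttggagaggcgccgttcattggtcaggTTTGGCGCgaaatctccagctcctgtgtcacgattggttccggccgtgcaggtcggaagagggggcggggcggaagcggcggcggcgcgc
MKI67: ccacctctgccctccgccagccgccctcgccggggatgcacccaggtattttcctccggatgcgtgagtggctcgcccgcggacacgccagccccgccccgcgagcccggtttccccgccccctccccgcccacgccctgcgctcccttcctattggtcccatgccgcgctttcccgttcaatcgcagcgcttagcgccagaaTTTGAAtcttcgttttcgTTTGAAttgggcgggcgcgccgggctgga
CDC20: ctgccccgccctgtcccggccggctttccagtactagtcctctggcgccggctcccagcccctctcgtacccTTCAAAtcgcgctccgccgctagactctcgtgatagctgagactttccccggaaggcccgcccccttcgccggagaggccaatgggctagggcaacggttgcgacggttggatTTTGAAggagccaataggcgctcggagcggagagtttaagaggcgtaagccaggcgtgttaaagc
CHR letters were present in 30 of 42 mitosis promoters (71.4%) and in 2 of 41 DNA replication promoters (4.88%), with 10.1% in all 11407 promoters of tested genes. E2F letters were present in 3 mitosis promoters (7.14%) and in 16 DNA replication promoters (39%), with 3.55% in all. Over genes higher past 2-fold in OSM the shares were 17% for CHR and 5.96% for E2F, and over genes lower past 2-fold 10.7% and 1.2%. MCM6 was at 17.7 CPM in PBS and 69.9 in OSM and MKI67 at 21.5 and 309.

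Genes that respond to ERK signalling rose in part, with no EGF added. Of 14 feedback inhibitors 9 were higher and 4 lower (median 0.69), and of 19 ERK-responsive factors 14 and 3 (median 0.69). DUSP6, the phosphatase that removes ERK's activating phosphates, gave 5.82, 5.1 and 5.26 CPM in PBS, 68.7, 49.8 and 81.1 in OSM and 102, 89.2 and 96.6 in EGF. FOSL1, an AP-1 subunit, gave 9.99, 8.7 and 7.88 CPM in PBS, 41.8, 36.9 and 49.5 in OSM and 91.1, 85.8 and 91.4 in EGF (log2 fold change of 2.27 ± 0.13, adjusted p = 1.0e-12). ETV5, an ETS factor, gave 2.77, 2.91 and 2.4 CPM in PBS, 11.2, 9.37 and 18.5 in OSM and 43.2, 45.2 and 49 in EGF (log2 fold change of 2.26 ± 0.20, adjusted p = 1.2e-09). In each of these 3 genes the OSM libraries lay above PBS and below EGF, and in ETV5 OSM replicate 3 was the highest of its group. Against EGF, 2 of the 14 feedback inhibitors were higher and 10 lower in OSM (median -0.80). The ERK-responsive factors were more even, with 6 higher and 7 lower in OSM than in EGF (median -0.06). EGR3, an early growth response factor, ran the other way, at 10.5 CPM in PBS and 1.22 in OSM (log2 fold change of -3.10 ± 0.23, adjusted p = 2.7e-11).

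Of the ligands of the EGF receptor, AREG, amphiregulin, gave 12, 10.9 and 9.37 CPM in PBS and 56.8, 42.3 and 80.4 CPM in OSM (log2 fold change of 2.47 ± 0.25, adjusted p = 2.6e-08), replicate 3 being the highest. NRG1, neuregulin 1, rose from 0.639 to 3.62 CPM (log2 fold change of 2.50 ± 0.24, adjusted p = 2.7e-09). EPGN, epigen, fell from 105 to 38.1 CPM (log2 fold change of -1.46 ± 0.16, adjusted p = 7.2e-08), and HBEGF was not called (log2 fold change of -0.03 ± 0.11, adjusted p = 0.84). Among the receptors EGFR rose from 393 to 521 CPM (log2 fold change of 0.41 ± 0.05, adjusted p = 6.2e-07), and ERBB3 fell from 134, 146 and 138 CPM in PBS to 43.4, 50.4 and 30.6 CPM in OSM (log2 fold change of -1.75 ± 0.15, adjusted p = 1.9e-09), with ERBB2 also lower (log2 fold change of -0.52 ± 0.06, adjusted p = 1.4e-07).

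Genes of squamous differentiation were lower in most cases. Stratified epithelium uses this programme to build a crosslinked cornified envelope, and its genes are spread over keratins, envelope precursors and proteases. All 9 tested small proline-rich (SPRR) genes, envelope precursors, were lower past 2-fold, with a median log2 fold change of -4.47, or -4.10 with genes at 3 counts or fewer set to their bound. SPRR1B gave 564, 659 and 746 CPM in PBS and 17.6, 26 and 18 CPM in OSM (log2 fold change of -4.99 ± 0.22, adjusted p = 7.6e-14), and SPRR3 241, 302 and 399 CPM in PBS and 4.04, 7.06 and 4.16 CPM in OSM (log2 fold change of -5.92 ± 0.44, adjusted p = 4.3e-10). IVL, involucrin, an early envelope protein, gave 91.3, 116 and 127 CPM in PBS and 4.01, 4.5 and 3.84 CPM in OSM (log2 fold change of -4.76 ± 0.18, adjusted p = 2.4e-15). CRNN, cornulin, had 88, 149 and 323 counts in PBS and 0, 0 and 0 in OSM, at least 172-fold lower. Members of the SPRR2 subfamily are near-identical, and their single values are uncertain.

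Of 51 late squamous genes tested, 44 were lower, 43 past 2-fold, and 3 higher (median -2.52). The keratins of upper layers were among the larger falls: KRT10 gave 2449, 3213 and 3833 CPM in PBS and 55.1, 80.3 and 62.5 CPM in OSM (log2 fold change of -5.58 ± 0.30, adjusted p = 3.1e-12), its partner KRT1 80.9, 85.2 and 110.3 CPM in PBS and 0.228, 0.443 and 0.486 CPM in OSM (log2 fold change of -7.87 ± 0.52, adjusted p = 4.4e-11), and the mucosal pair KRT4 and KRT13 had log2 fold changes of -7.36 ± 0.59 and -5.78 ± 0.31. DSG1, the desmoglein of upper layers, gave 9.34, 8.18 and 12.4 CPM in PBS and 0.114, 0.199 and 0.27 CPM in OSM (log2 fold change of -5.65 ± 0.39, adjusted p = 1.2e-11). KLK7, a protease that sheds corneocytes, gave 169, 206 and 128 CPM in PBS and 19, 22.4 and 8.62 CPM in OSM (log2 fold change of -3.33 ± 0.40, adjusted p = 5.1e-07), lowest in OSM replicate 3. CALML5, a calmodulin-like protein of keratinocytes, averaged 45.8 and 0.395 CPM (log2 fold change of -6.86 ± 0.27, adjusted p = 1.4e-15).

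The exceptions within the late squamous list were few. CLCA2, a cell-surface chloride channel regulator, rose from 442, 406 and 401 CPM in PBS to 917, 916 and 874 CPM in OSM (log2 fold change of 1.12 ± 0.07, adjusted p = 1.3e-12). TCHH, trichohyalin, rose from 1.23 to 2.41 CPM (log2 fold change of 0.97 ± 0.24, adjusted p = 0.0014). LY6D, the other member called higher (log2 fold change of 0.63 ± 0.23, adjusted p = 0.025), lost that call in 6 of 13 alternatives: with only the 2 groups fitted (0.61), without the filter on low counts (0.61), without PBS replicate 1 or 2 (0.49 and 0.63) and without OSM replicate 2 or 3 (0.47 and 0.53). CASP14, the caspase that processes filaggrin in the cornified layer, is not in that list but was among the largest rises of the transcriptome, at 0.674, 0.581 and 0.709 CPM in PBS and 105, 105 and 71.7 CPM in OSM (log2 fold change of 7.17 ± 0.30, adjusted p = 1.1e-14). Its groups lay far apart, while filaggrin itself, FLG, gave 17.4, 13.7 and 17.1 CPM in PBS and 5.8, 7.37 and 5.94 CPM in OSM (log2 fold change of -1.33 ± 0.14, adjusted p = 1.7e-08). FLG is named here after its values were seen, as are ORC4, MCM6 and MKI67 above.

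AP-1 letters (TGANTCA, both strands) are capitalised in the 250 bases before the start of SPRR3 (chr1:153001499-153001748, plus strand) and IVL (chr1:152908296-152908545, plus strand), shown because most SPRR windows carried them.
SPRR3: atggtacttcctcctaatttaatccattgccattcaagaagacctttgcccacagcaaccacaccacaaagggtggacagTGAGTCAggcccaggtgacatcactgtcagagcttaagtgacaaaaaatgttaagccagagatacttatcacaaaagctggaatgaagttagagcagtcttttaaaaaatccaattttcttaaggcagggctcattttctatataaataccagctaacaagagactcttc
IVL: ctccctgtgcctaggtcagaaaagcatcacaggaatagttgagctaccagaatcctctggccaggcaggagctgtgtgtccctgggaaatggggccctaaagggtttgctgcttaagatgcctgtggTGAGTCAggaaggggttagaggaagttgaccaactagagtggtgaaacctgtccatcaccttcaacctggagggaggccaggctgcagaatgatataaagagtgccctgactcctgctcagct
Each held TGAGTCA, with 163 bases between the match and the start in SPRR3 and 116 in IVL. AP-1 letters were present in 5 of 7 SPRR promoters, but in only 8 of 40 promoters of the late squamous list (20%). The share was 10.4% in promoters of genes lower past 2-fold, 7.8% in those higher past 2-fold and 5.15% in all 11407. The AP-1 genes themselves differed in direction: FOSL1 and JUN rose (2.27 and 1.45 on the log2 scale), and JUND and FOSB fell (-0.65 and -1.45).

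Along chromosome 1, where many of these genes lie side by side in the epidermal differentiation complex, runs of neighbours shared a direction in part of the region. From S100A10 to S100A1 (chr1:151982915-153632039, GRCh38), 43 protein-coding genes were tested, of which 14 were higher and 25 lower. S100A10, S100A11, TCHHL1 and TCHH at one end rose. The next run, from RPTN through CRNN, IVL and the SPRR genes to PGLYRP3 and PGLYRP4, fell, apart from members that were not called and C1orf68, which was called higher at 0.125 CPM in OSM and had no PBS count. PGLYRP4, a peptidoglycan-binding protein, had a log2 fold change of -2.20 ± 0.25. Its neighbour S100A9 had one of 3.10 ± 0.17, and S100A12, S100A8, S100A7A and S100A7 beyond it rose too. Further on the directions alternated: S100A6, S100A3, S100A2 and S100A13 were called higher, S100A4, S100A16 and S100A14 lower, and S100A1 was not called. The genes named in this stretch were taken by position.

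**Figure D4:**
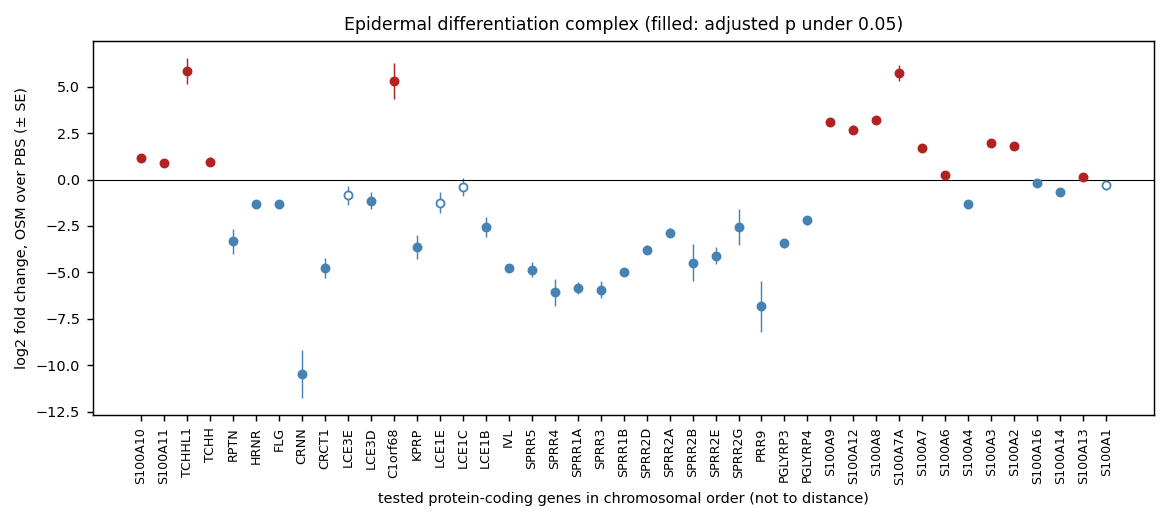
Log2 fold change of OSM over PBS (y axis, bars are ± SE) for 43 tested protein-coding genes of the epidermal differentiation complex in their order along the chromosome (x axis, gene order, not distance), filled where the adjusted p was under 0.05. The SPRR block lies below 0, and the calprotectin genes S100A8 and S100A9 lie above. Folds of genes with a group at or under 3 counts (CRNN and C1orf68 among them) depend on the prior count and are not sizes.

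Keratins of basal and simple epithelium split, 6 of 15 being higher and 6 lower (median 0.01). KRT14, the main basal type I keratin, gave 560.5, 669 and 751 CPM in PBS and 2673, 2512 and 2959 CPM in OSM (log2 fold change of 2.04 ± 0.10, adjusted p = 5.0e-14), while its partner KRT5 was not called, at 6117, 6301 and 7027 CPM in PBS and 6847, 7148 and 7164 CPM in OSM (log2 fold change of 0.12 ± 0.06, adjusted p = 0.072), and was called higher without PBS replicate 3 (0.18) and with the replicate number as a block (0.12). KRT6A, a keratin of wounded skin, gave 3726, 4257 and 4402 CPM in PBS and 9289.8, 9530.5 and 9549.5 CPM in OSM (log2 fold change of 1.20 ± 0.06, adjusted p = 7.8e-14), and KRT17, another, 2561, 2536 and 3106 CPM in PBS and 6862, 7054 and 6458 CPM in OSM (log2 fold change of 1.31 ± 0.11, adjusted p = 4.8e-10). KRT16, which is usually co-expressed with them, fell from 1987, 2413 and 2023 CPM in PBS to 483, 591 and 433 CPM in OSM (log2 fold change of -2.09 ± 0.19, adjusted p = 4.4e-09). Among the keratins of activated skin the direction therefore differed. KRT15, a basal keratin of resting epithelium, fell from 1667, 1663 and 1405 CPM in PBS to 216, 206 and 76.5 CPM in OSM (log2 fold change of -3.25 ± 0.35, adjusted p = 1.2e-07), to less in replicate 3 than in the other OSM libraries. KRT81, a hair keratin, fell from 2234, 2879 and 3094 CPM in PBS to 273, 339 and 343 CPM in OSM (log2 fold change of -3.10 ± 0.16, adjusted p = 2.3e-13). KRT14, KRT16 and KRT17, and the KRT6 copies, have similar sequences and related pseudogenes, so the split between them rests on the authors' quantification.

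Transcription factors of the squamous programme were lower. Of 11 tested, 9 were lower and 0 higher (median -1.55). KLF4, a factor of differentiating keratinocytes, gave 41.7, 44.3 and 44.5 CPM in PBS and 12.3, 13.5 and 10.0 CPM in OSM (log2 fold change of -1.86 ± 0.11, adjusted p = 3.2e-13). GRHL3, which directs barrier formation, gave 76.2, 79.8 and 87.3 CPM in PBS and 26.7, 30.9 and 23.7 CPM in OSM (log2 fold change of -1.58 ± 0.14, adjusted p = 1.5e-09), and OVOL1 21.9, 25.2 and 28.4 CPM in PBS and 7.11, 8.37 and 6.78 CPM in OSM (log2 fold change of -1.76 ± 0.18, adjusted p = 1.2e-08). ZNF750 and ELF3 averaged 38.4 and 226 CPM in PBS and 14.1 and 68.3 CPM in OSM. TP63, the basal master regulator, rose from 121, 112 and 109 CPM in PBS to 195, 183 and 185 CPM in OSM (log2 fold change of 0.72 ± 0.04, adjusted p = 1.2e-12), and SOX9 fell from 57.1 to 7.34 CPM (log2 fold change of -2.96 ± 0.19, adjusted p = 1.4e-11).

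Most desmosome genes were lower, and genes of other cell-cell junctions split. Of 11 desmosome genes tested, 8 were lower and 1 higher (median -0.76). DSP, desmoplakin, fell from 4143, 4177 and 4677 CPM in PBS to 2300.4, 2515 and 2117 CPM in OSM (log2 fold change of -0.91 ± 0.09, adjusted p = 2.0e-09). CLDN4, a tight junction claudin, fell from 134, 158 and 125 CPM in PBS to 23.2, 28.5 and 13.8 CPM in OSM (log2 fold change of -2.66 ± 0.30, adjusted p = 1.5e-07), and the scaffolds CGN and TJP3 from 43.3 and 48.7 to 9.86 and 8.82 CPM. Of 29 tight and adherens junction genes tested 14 were lower and 10 higher (median -0.27). CDH1, E-cadherin, fell from 510.4, 532 and 503 CPM in PBS to 276, 318 and 243 CPM in OSM (log2 fold change of -0.88 ± 0.13, adjusted p = 3.1e-06), while CDH3, P-cadherin, rose from 489, 482 and 468 CPM in PBS to 1428, 1649.6 and 1257 CPM in OSM (log2 fold change of 1.59 ± 0.10, adjusted p = 3.4e-12). GJA1, connexin 43, rose from 0.125, 0.28 and 0.318 CPM in PBS to 15.6, 14.1 and 9.05 CPM in OSM (log2 fold change of 5.71 ± 0.43, adjusted p = 1.2e-10).

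Genes of epithelial-mesenchymal transition split by role. Of 10 mesenchymal factors and markers 6 were higher and 2 lower (median 0.80), and of 6 epithelial ones 0 were higher and 5 lower (median -0.55). SNAI1 gave 0.225, 0.151 and 0.171 CPM in PBS and 15.2, 16 and 13.5 CPM in OSM (log2 fold change of 6.34 ± 0.20, adjusted p = 3.6e-18) and ZEB1 rose from 2.36 to 5.84 CPM (log2 fold change of 1.30 ± 0.16, adjusted p = 1.2e-07). Both are repressors of E-cadherin. SNAI2, another one, was not called (log2 fold change of -0.07 ± 0.06, adjusted p = 0.39), and ZEB2 and TWIST1 fell (-0.89 ± 0.12 and -1.52 ± 0.13). VIM, vimentin, rose from 418 to 938 CPM (log2 fold change of 1.17 ± 0.07, adjusted p = 1.2e-12), and CDH2, N-cadherin, from 3.01 to 7.65 (log2 fold change of 1.34 ± 0.11, adjusted p = 1.4e-10). ESRP1, an epithelial splicing regulator, fell by 0.51 ± 0.06 on the log2 scale (adjusted p = 1.9e-07).

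Receptors for the matrix rose. Of 15 integrin genes tested, 12 were higher and 2 lower (median 1.18). ITGB6, a chain that activates latent TGFB, gave 134, 113 and 118 CPM in PBS and 665, 635 and 571 CPM in OSM (log2 fold change of 2.36 ± 0.14, adjusted p = 3.8e-12), ITGA3, a laminin-binding chain, 294, 286 and 294 CPM in PBS and 1066, 936 and 1109.6 CPM in OSM (log2 fold change of 1.83 ± 0.06, adjusted p = 7.5e-18), and ITGB4 of the hemidesmosome 1023, 964 and 1000.3 CPM in PBS and 2779, 2633 and 2348 CPM in OSM (log2 fold change of 1.38 ± 0.08, adjusted p = 7.8e-13). Of 10 genes listed with the laminins 5 were higher and 2 lower (median 0.14). LAMA3 and LAMB3, laminin chains of the basement membrane, were among those that rose, with log2 fold changes of 1.76 ± 0.09 and 1.66 ± 0.10.

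Other matrix genes split by kind. Of 21 matricellular and related genes 13 were higher and 5 lower (median 0.95), and of 17 collagen genes 5 were higher and 8 lower (median -0.22). TNC, tenascin C, an anti-adhesive protein of wounds and tumour stroma, gave 14.8, 10.9 and 11.9 CPM in PBS and 745, 686 and 708 CPM in OSM (log2 fold change of 5.83 ± 0.19, adjusted p = 3.4e-16). THBS1, thrombospondin 1, gave 24.2, 22 and 28.9 CPM in PBS and 304, 245 and 489 CPM in OSM (log2 fold change of 3.79 ± 0.25, adjusted p = 4.3e-11), the highest in OSM replicate 3. COL6A1, a collagen VI chain, fell from 61.8 to 11.3 CPM (log2 fold change of -2.45 ± 0.16, adjusted p = 5.8e-12), and COL4A1 of the basement membrane rose from 16.5 to 87.7 (log2 fold change of 2.41 ± 0.13, adjusted p = 8.8e-13).

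Of the proteases, MMP3, stromelysin 1, had 0, 1 and 0 counts in PBS and 352, 514 and 239 in OSM, a ratio of 1200 (95% exact counting interval 215 to 47400). MMP7, matrilysin, fell from 33.6, 43.5 and 40.7 CPM in PBS to 1.02, 1.75 and 1.16 CPM in OSM (log2 fold change of -4.88 ± 0.31, adjusted p = 6.8e-12). These metalloproteinase genes thus went in opposite directions. ADAM19, a membrane sheddase, gave 3.4, 3.4 and 3.03 CPM in PBS and 119, 82.3 and 129 CPM in OSM (log2 fold change of 5.07 ± 0.18, adjusted p = 8.9e-16), and SERPINE2, an inhibitor of thrombin and plasminogen activators, 2.42, 1.98 and 2.54 CPM in PBS and 105, 71.9 and 121 CPM in OSM (log2 fold change of 5.42 ± 0.19, adjusted p = 9.6e-16). TGM2, the tissue transglutaminase, rose from 4.25 to 73.6 CPM (log2 fold change of 4.11 ± 0.22, adjusted p = 1.0e-12).

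Genes of low-oxygen signalling and glycolysis rose in cells for which the labels give no change in oxygen. HIF1A, the oxygen-regulated factor, which in hypoxia is controlled mainly as a protein, gave 197, 205 and 201 CPM in PBS and 1029.6, 1112 and 1035 CPM in OSM (log2 fold change of 2.40 ± 0.05, adjusted p = 2.2e-21). Of 20 responsive genes, 16 were higher and 3 lower (median 1.27). CA9, a carbonic anhydrase, had 0, 1 and 1 counts in PBS and 433, 429 and 355 in OSM, a ratio of 661 (95% exact counting interval 182 to 5460). CA9 was thus near silent in PBS. EGLN3, a prolyl hydroxylase that marks HIF for breakdown, gave 0.524, 0.689 and 0.66 CPM in PBS and 57.2, 52.8 and 47.3 CPM in OSM (log2 fold change of 6.38 ± 0.27, adjusted p = 1.5e-14), and STC1, stanniocalcin 1, 1.3, 1.66 and 1 CPM in PBS and 55.4, 49.5 and 64.8 CPM in OSM (log2 fold change of 5.40 ± 0.19, adjusted p = 2.8e-16). ADM, adrenomedullin, also a standard member, fell from 17.5 to 12.9 CPM (log2 fold change of -0.44 ± 0.12, adjusted p = 0.0034), and DDIT4 from 571 to 392 (log2 fold change of -0.54 ± 0.09, adjusted p = 2.6e-05). The groups did not overlap in any of the members named with library values.

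Of 24 glycolysis genes 21 were higher and 3 lower (median 0.94). LDHA, lactate dehydrogenase A, gave 387, 401 and 384 CPM in PBS and 1286, 1399 and 1489 CPM in OSM (log2 fold change of 1.83 ± 0.06, adjusted p = 2.9e-18). HK2, the inducible hexokinase, rose from 46.8 to 112 CPM (log2 fold change of 1.26 ± 0.10, adjusted p = 2.9e-10), while HK1, the constitutive one, fell from 492 to 291 (log2 fold change of -0.76 ± 0.05, adjusted p = 1.8e-12). SLC2A3, a glucose transporter, rose from 0.572 to 5.6 CPM (log2 fold change of 3.27 ± 0.30, adjusted p = 2.5e-09).

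Transcripts of the respiratory chain fell by little. All 13 mitochondrial messenger RNAs were lower (median -0.57), MT-CO1, a cytochrome oxidase subunit, falling from 9236, 9111 and 9539 CPM in PBS to 6261, 5932 and 6524 CPM in OSM (log2 fold change of -0.58 ± 0.09, adjusted p = 3.2e-06). Of 46 nuclear subunits 36 were lower and 4 higher, none past 2-fold (median -0.35). Their library medians in OSM lay -0.43, -0.31 and -0.30 on the log2 scale from the PBS mean. Against this, all 4 tested metallothioneins, small proteins that bind zinc and copper, rose (median 2.63): MT2A gave 381, 225 and 369.9 CPM in PBS and 5301, 5177 and 6021 CPM in OSM (log2 fold change of 4.08 ± 0.13, adjusted p = 4.4e-17). The copies of the family are similar in sequence, which makes the values of single members uncertain.

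Genes of the state without growth factors were lower. Of 23 genes that FOXO factors drive when growth factors are missing, 16 were lower and 4 higher (median -0.77). PDK4, which blocks pyruvate entry into mitochondria, gave 523, 454 and 464 CPM in PBS and 61.2, 70.2 and 44.4 CPM in OSM (log2 fold change of -3.03 ± 0.18, adjusted p = 8.2e-12), and TXNIP, which limits glucose uptake, 1285, 1301 and 1199.8 CPM in PBS and 493, 513 and 386 CPM in OSM (log2 fold change of -1.44 ± 0.19, adjusted p = 1.6e-06). IGF1R, the receptor of insulin-like growth factor, went up, from 154, 135 and 143 CPM in PBS to 443, 422 and 379 CPM in OSM (log2 fold change of 1.52 ± 0.07, adjusted p = 1.3e-15), as did PNRC1 (log2 fold change of 1.31 ± 0.16, adjusted p = 4.4e-07). BMF, a cell-death gene that rises when epithelium is deprived of signals, fell from 109, 118 and 122 CPM in PBS to 14.5, 18.1 and 10.3 CPM in OSM (log2 fold change of -3.01 ± 0.21, adjusted p = 1.3e-10).

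Glucocorticoid-responsive genes, which bear on medium that had contained hydrocortisone, were lower in 10 of 14 cases (median -0.97). TSC22D3, known as GILZ, gave 379, 396 and 374 CPM in PBS and 47.9, 50.6 and 32.3 CPM in OSM (log2 fold change of -3.13 ± 0.15, adjusted p = 6.9e-14), and GLUL, glutamine synthetase, 3330.1, 3749 and 3138 CPM in PBS and 678, 800.3 and 461 CPM in OSM (log2 fold change of -2.40 ± 0.15, adjusted p = 6.7e-12). SGK1 was the one member that rose, from 75.8 to 144 CPM (log2 fold change of 0.93 ± 0.07, adjusted p = 5.5e-11). Antioxidant genes of the NRF2 factor were lower in 15 of 24 and higher in 4 (median -0.45). ALDH3A1, an aldehyde dehydrogenase, fell from 518, 517 and 699 CPM in PBS to 66.7, 72.1 and 75 CPM in OSM (log2 fold change of -3.02 ± 0.20, adjusted p = 3.4e-11), and SOD2, the mitochondrial superoxide dismutase, rose from 856, 1100.5 and 834 CPM in PBS to 1835, 2772 and 1668 CPM in OSM (log2 fold change of 1.17 ± 0.20, adjusted p = 3.7e-05).

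The T0 libraries carry no treatment and no vehicle, and the OSM libraries were also tested against T0, with no PBS library in the contrast. Of tested genes 56.2% were called, 29.8% higher and 26.3% lower than T0. Mitosis genes stayed higher in 45 of 47, but with a median of 0.97, and DNA replication genes in 43 of 48 (median 0.68). MKI67 gave 23.6, 13.6 and 27.4 CPM in PBS, 149, 129 and 149 in T0 and 291, 264 and 371 in OSM, so the T0 libraries lay between them. Acute-phase genes had a median of 3.09 against T0, and late squamous genes one of -1.87, 39 of 51 being lower. Metallothioneins were higher than T0 in 4 of 4.

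Set against EGF, the standard mitogen of these cells, 54.4% of genes differed (26.8% higher and 27.6% lower in OSM), 8.16% higher and 4.64% lower in OSM past 2-fold. Acute-phase genes were higher in OSM in 15 of 17 (median 4.68) and complement genes in 16 of 20 (median 1.54), with none lower in either. DNA replication genes were lower in OSM in 47 of 48 (median -0.81) and mitosis genes in 37 of 47 (median -0.62). All 9 G1 cyclins and kinases were lower in OSM than in EGF, though 6 were higher and 1 lower in OSM than in PBS. SPRR genes were lower in 7 of 9: SPRR1B, given above, was at 204, 242 and 254 CPM in EGF (log2 OSM over EGF fold change of -3.50 ± 0.21, adjusted p = 1.9e-11).

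Other groups are given against EGF in the same way. Ribosomal proteins were higher in OSM than in EGF in 77 of 78 (median 0.60), while ribosome biogenesis genes were lower in 30 of 40 (median -0.36). MHC class I genes were higher in OSM in 11 of 15, with a median of 0.78. FOXO and starvation genes were higher in OSM than in EGF in 19 of 23 (median 0.89), which placed the group's median below PBS and above EGF. FBXO32, a ubiquitin ligase of muscle atrophy picked after its values were seen, gave 262, 273 and 268 CPM in PBS, 110.1, 133 and 48.3 CPM in OSM and 7.38, 8.29 and 6.33 CPM in EGF. Sterol synthesis genes were lower in OSM than in EGF in 19 of 23 (median -0.58). Against PBS, 15 of these were higher in OSM and 3 lower (median 0.38). Among single genes at 10 CPM or more, OSM was furthest above EGF in FGL1, OLFM4, HP, LTF and SERPINB4, and furthest below it in KRT4, CPA4, SPRR3, SPRR1A and IVL. INHBA, the activin A subunit, gave 2.02, 1.31 and 1.81 CPM in PBS, 0.967, 0.886 and 1.24 in OSM and 15.7, 14.2 and 11.6 in EGF (log2 OSM over EGF fold change of -3.75 ± 0.22, adjusted p = 1.7e-12), with the OSM libraries nearest to PBS.

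**Figure D5:**
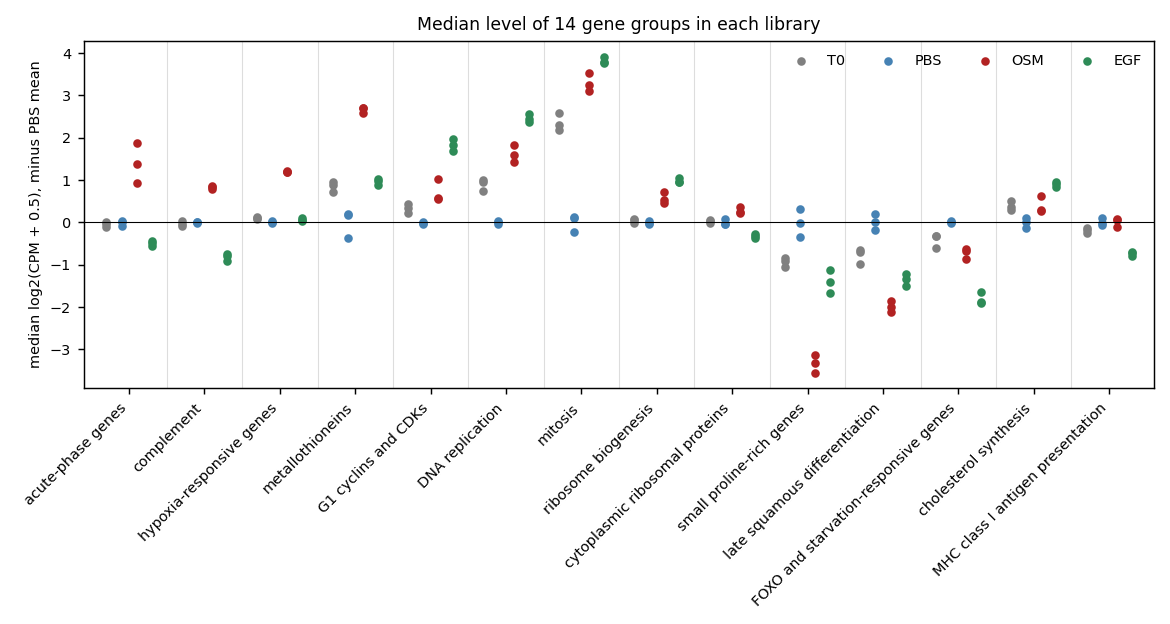
Median over the members of 14 gene groups of log2(CPM + 0.5) relative to the mean of the PBS libraries (y axis), in each library of T0, PBS, OSM and EGF, 3 points a group. Acute-phase and complement genes are highest in OSM, replication and mitosis genes are highest in EGF with OSM next, and squamous genes are lowest in OSM.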

How the data were processed

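RNA was taken from MCF10A cells, 3 libraries in each of 9 groups, with a stranded mRNA kit per the labels' protocols. The authors deposited 1 table of estimated counts per gene (40487 rows, whole numbers). Per the submitters' processing notes, Trim Galore 0.4.3, cutadapt 1.10, FastQC 0.11.5, kallisto 0.46.2 and R 3.5.0 were used with the builds GRCh38.p5 and hg38. Such counts spread reads among similar transcripts, so near-identical genes are uncertain. Whether the quantification used the strand is not given in the sources used here.

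Counts were fitted in R 4.3.3 with edgeR 4.0.16 (filterByExpr, TMM, glmQLFit with robust dispersion, glmQLFTest, 1 mean per group over all 27 libraries, 16611 rows tested, 18 residual degrees of freedom). The common coefficient of variation between libraries, beyond counting noise, was 10.1%. P-values were adjusted by Benjamini-Hochberg over all rows, and the threshold for a call was 0.05. SE is the log2 fold change divided by the root of the test's F. Totals ran from 30.1 to 52.9 M counts. A group with 0 counts was set at 3 for a fold bound (up to 3 for list medians). Replicates were compared, and none matched within sampling noise. The procedure was tested on simulated data.

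The members and gene lists were chosen with earlier results of these data known. Genes named are the 15 largest changes each way (10 CPM or more), preset members of each list, the 3 largest called changes each way per list (2 CPM or more), the 10 largest gains and losses in CPM and the 10 largest differences each way from EGF. FLG, ORC4, TYK2, MCM6, MKI67 and FBXO32 were added after their values were seen. Alternatives were other scalings, no filter, DESeq2 1.42.0, 2 groups only, summed rows of a symbol, a replicate block and leaving out each library. Promoters came from RefSeq (GRCh38.p14), matched by symbol for 11407 tested genes. Some genes are not reported here.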

Additional observations from a re-analysis of the deposited data

How the results depend on the processing

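The number of genes called in OSM against PBS stayed within 1.5 times its value under every alternative run, as did the number past 2-fold and the numbers against T0 and EGF. The balance of higher and lower calls was less stable: upper-quartile scaling turned it against PBS, T0 (4262 higher and 5031 lower) and EGF (4691 higher and 4358 lower), and past 2-fold against PBS (1542 higher and 1764 lower), where it also turned with RLE size factors, DESeq2, no filter and only the 2 groups fitted. Called genes numbered 10197 with upper-quartile scaling, which put the median of all genes at -0.06, 9723 without the filter on low counts, 9190 with only the 2 groups fitted, 10017 with DESeq2, and 9325 to 9744 with 1 library left out, the fewest without OSM replicate 3. With the replicate number as a block the count was 10431, and past 2-fold 3300. Equal numbers did not pair the libraries: deviations from the group means correlated by 0.00492, 0.0537 and -0.00839 for OSM and PBS libraries of the same number. For OSM and EGF they were 0.0969, 0.105 and 0.118, each above those of unequal numbers, which is a hint from the data and not from the labels. Without OSM replicate 3, 47 mitosis, 46 DNA replication and 11 acute-phase genes were higher and 43 late squamous genes lower. Among the named genes that were followed through the alternatives, the direction turned only in genes that were not called in either fit. Upper-quartile scaling turned ID1 (-0.0268). With 1 library left out the log2 fold changes ran from -0.121 to 0.0018 in B2M, -0.0586 to 0.183 in HLA-B, -0.0447 to 0.1859 in TAP1, -0.2591 to 0.0875 in CCND1, -0.0777 to 0.0527 in HBEGF and -0.0735 to 0.13 in ID1, and the cause was not tested. Medians of gene groups moved by more than the spread between libraries in 92 cases over 27 groups. Of the medians given for whole gene groups, those of gp130 family, MHC class I, chemokine, and basal and simple epithelial keratin genes turned direction under some alternatives. All of these were near 0. Groups of 3 limit the tests of single low genes, and calls of genes under 1 CPM rest on few counts.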

Other observations

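Several gene groups that the comparison also covers are given here as values. Of 23 angiogenic and Eph genes 13 were higher and 7 lower in OSM (median 0.62). VEGFA, the main angiogenic factor, gave 24.7, 25 and 23.4 CPM in PBS and 145, 113 and 124 CPM in OSM (log2 fold change of 2.38 ± 0.13, adjusted p = 1.2e-12), while KDR, its receptor, fell from 28.6, 31.2 and 30.7 CPM in PBS to 1.76, 1.53 and 1.27 CPM in OSM (log2 fold change of -4.31 ± 0.16, adjusted p = 5.8e-17). The ligand EFNA1, ephrin A1, rose from 79.8 to 312 CPM (log2 fold change of 1.96 ± 0.15, adjusted p = 1.6e-10), and the receptor EPHB6 fell from 7.01 to 0.41 (log2 fold change of -4.07 ± 0.47, adjusted p = 1.1e-07). Ligand and receptor of a pair thus moved in opposite directions in VEGFA and KDR. JAG1, a Notch ligand, rose from 37.3, 33.2 and 35.7 CPM in PBS to 156, 141 and 156 CPM in OSM (log2 fold change of 2.10 ± 0.08, adjusted p = 4.4e-16), and NOTCH1, a receptor, fell from 345, 328 and 344 CPM in PBS to 143, 144 and 102 CPM in OSM (log2 fold change of -1.39 ± 0.13, adjusted p = 4.0e-09), with the target HES1 not called (log2 fold change of 0.11 ± 0.10, adjusted p = 0.37). In the WNT group 8 of 19 were lower and 5 higher. WNT4 fell from 6.05 to 0.387 CPM (log2 fold change of -3.95 ± 0.31, adjusted p = 6.1e-11), and the secreted antagonist DKK1 from 82.6, 91.6 and 89.5 CPM in PBS to 6.66, 9.19 and 7.56 CPM in OSM (log2 fold change of -3.48 ± 0.12, adjusted p = 6.5e-17).

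TGFB pathway genes were higher in 11 and lower in 12 of 33, beside 32.4% higher and 28.5% lower among all genes. PMEPA1, a feedback inhibitor, rose from 48.4, 44.2 and 46.6 CPM in PBS to 223, 198 and 214 CPM in OSM (log2 fold change of 2.19 ± 0.10, adjusted p = 2.8e-14), and TGFBR1, a receptor chain, from 40.1 to 119 (log2 fold change of 1.57 ± 0.07, adjusted p = 8.9e-16), while the co-receptor TGFBR3 fell from 58.9, 57.5 and 59.7 CPM in PBS to 6.6, 7.57 and 7.4 CPM in OSM (log2 fold change of -3.03 ± 0.09, adjusted p = 1.2e-18). ID2 and ID3, which are targets of BMP signals, fell (-1.90 ± 0.16 and -1.49 ± 0.10 on the log2 scale), and ID1 was not called (log2 fold change of 0.04 ± 0.14, adjusted p = 0.84). Among SERPINB genes, SERPINB3 rose from 37.5, 45.8 and 49.1 CPM in PBS to 620.3, 782 and 675 CPM in OSM (log2 fold change of 3.97 ± 0.22, adjusted p = 3.7e-12), and its near-identical copy SERPINB4 from 2.89 to 557 CPM, so single values of the pair are uncertain. SERPINB2, an inhibitor of urokinase in the same gene cluster, fell from 59, 62.9 and 56.4 CPM in PBS to 12, 16.1 and 10.1 CPM in OSM (log2 fold change of -2.22 ± 0.15, adjusted p = 1.3e-11). HPGD, which breaks down prostaglandins, fell from 39.4, 41.4 and 44.9 CPM in PBS to 5.18, 6.18 and 3.16 CPM in OSM (log2 fold change of -3.11 ± 0.21, adjusted p = 1.9e-11), and PTGS2 (COX-2), which starts their synthesis, rose from 3.22 to 4.97 CPM (log2 fold change of 0.63 ± 0.14, adjusted p = 4.5e-04). FLNA and ACTN1, crosslinkers of actin, rose from 371 and 162 to 1677 and 757 CPM, and 10 of 17 genes of the contractile cytoskeleton were higher.

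Lysosomal proteases went in both directions: CTSB and CTSL, cathepsins B and L, rose from 375 and 71.5 to 1411 and 373 CPM, and CTSV fell from 104 to 19.5 CPM (log2 fold change of -2.41 ± 0.20, adjusted p = 1.8e-09). GPNMB, a lysosomal glycoprotein, fell from 94.8, 94.5 and 79.5 CPM in PBS to 4.41, 5.69 and 2.92 CPM in OSM (log2 fold change of -4.35 ± 0.25, adjusted p = 2.9e-12), and over the 35 genes 10 were higher and 19 lower. Of the BCL2 family, the survival factors MCL1 and BCL2L1 had log2 fold changes of 0.50 ± 0.06 and -0.33 ± 0.06. Survival genes of the family were higher in 3 of 5, 2 of them past 2-fold, and lower in 2. Their largest log2 fold change was 3.72. Death genes of the family were higher in 3 of 11 and lower in 6.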
